A study of Mus musculus with 18 samples.

Results

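The lysyl hydroxylases *Plod1*, *Plod2*, and *Plod3* and the lysyl oxidases *Lox*, *Loxl1*, *Loxl2*, and *Loxl3* were followed through the reprogramming of mouse embryonic fibroblasts (MEFs), both as gene levels and as splicing events. These 7 genes were taken by name from the collagen cross-linking enzymes, and all 7 were present in both tables of gene expression, of 9435 genes in the knockdown dataset and 9472 in the overexpression dataset. Of the 344 splicing events listed for them, 325 were covered in all libraries of the knockdown dataset and 323 in all libraries of the overexpression dataset. One event stood out by its size, a cassette exon of 63 nucleotides in *Plod2*, and it was set against the levels of the 7 genes.

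RNA was sequenced from primary MEFs of a *Collagen-OKSM*, *M2rtta*+ line, in which doxycycline turns on the 4 reprogramming factors (OSKM). The 18 libraries were 2 for each of 9 groups. The knockdown dataset comprised day 0 cells without infection (NI) and cells harvested on day 12 of induction that carried a lentiviral scrambled shRNA (shSCR), 1 of 2 shRNAs against the 3′ end processing endonuclease *Cpsf3* (shCPSF3#1, shCPSF3#2), or 1 of 2 against the RNA-binding protein gene *Hnrnpul1* (shUL1#1, shUL1#2). The overexpression dataset comprised its own day 0 NI cells and day 12 cells with a retroviral empty vector (Empty) or *Tia1* with a T7 epitope tag (T7-TIA1). All day 12 cells shared doxycycline, LIF, infection, and a sort for GFP at day 2, after which they were grown on inactivated feeder MEFs, whereas NI cells had none of these. Day 0 and day 12 therefore differ in virus, sorting, and feeders as well as in time, and these cannot be told apart. One field of the labels gives day 0 for shUL1#2 and day 12 for NI of the overexpression dataset, and the days in the titles were used. Nothing in the labels says that the libraries of a group came from separate cultures, so p values measure the spread between libraries, which may be technical.

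Lysyl hydroxylases add a hydroxyl group to lysines of procollagen in the endoplasmic reticulum. *Plod1* acts mainly on lysines of the collagen helix, *Plod2* on those of the short non-helical ends called telopeptides, and *Plod3* also transfers sugars to hydroxylysine. Lysyl oxidases act outside the cell, where they oxidize lysines and hydroxylysines of collagen and elastin to the aldehydes from which covalent cross-links form, and fibroblasts are a major source of both enzyme families. *Plod2* transcripts exist in a long form with the alternative exon (LH2b) and a short form without it (LH2a), and the long form is the one known for telopeptide hydroxylation.

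The *Plod2* exon (MmuEX0035870) lies on the plus strand of mm10 at chr9:92601985-92602047, within the coding sequence. It is exon 14 of the annotated long transcript, has 63 nucleotides (21 codons, so that the reading frame is kept), and is flanked by introns of 1102 and 900 nucleotides. The sequences below show what is gained or lost in the mRNA: the exon is in capitals, and 30 nucleotides of each neighbouring exon are in lower case (GENCODE M21 transcripts).
Long form: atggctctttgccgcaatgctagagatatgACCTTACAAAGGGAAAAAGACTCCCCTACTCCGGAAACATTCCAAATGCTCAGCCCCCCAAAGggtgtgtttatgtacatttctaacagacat
Short form: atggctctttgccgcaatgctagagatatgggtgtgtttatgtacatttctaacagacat
The primers that the study lists for this exon lie outside it, and on these transcripts they would give products of 211 and 148 nucleotides.
Forward primer: agacactccgatctgagatga
Reverse primer: gcagttgatatcagccgtcca

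The exon with 100 nucleotides of intron on each side was read from an annotated retained-intron transcript of *Plod2* (exon in capitals), since TIA1 is known to bind U-rich stretches next to 5′ splice sites.
Exon and flanks: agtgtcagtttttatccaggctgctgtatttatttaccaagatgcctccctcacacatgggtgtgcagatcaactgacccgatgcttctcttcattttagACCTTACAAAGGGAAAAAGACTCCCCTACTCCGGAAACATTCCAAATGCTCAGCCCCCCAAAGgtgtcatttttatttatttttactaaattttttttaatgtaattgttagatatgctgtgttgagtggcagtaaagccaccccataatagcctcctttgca
A run of 5 T (TTTTT, transcribed strand only, overlapping matches counted) occurred 6 times in the 100 nucleotides downstream, starting at nucleotide 7 of the intron, and 1 time upstream. Among 4426 exons of the annotation whose flanks could be read in the same way, 16.6% held TTTTT downstream and 26.1% upstream. The motif GCATG, known for RBFOX proteins, occurred 0 times on either side, where 9.83% and 8.11% of those windows held it. A match is a description of the letters and says nothing on binding.

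Between day 0 and day 12, *Plod2* transcripts changed from almost all including the exon to about equal shares of both forms, in both control conditions. The percent spliced in (PSI), which is the percentage of transcripts with the exon, was 93.0 and 93.7 in NI of the knockdown dataset and 60.2 and 30.03 in shSCR. In the overexpression dataset it was 95.1 and 97.5 in NI and 42.1 and 49.9 in Empty. No day 12 control library reached the range of the NI libraries, and the shSCR libraries lay 30.2 PSI apart, further than those of any other group. Between 981 and 1831 reads informed the exon in each library.

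The change in PSI (∆PSI) was −48.3 for shSCR and −50.3 for Empty. On the scale of log2 of inclusion reads over exclusion reads, the fall was −4.12 ± 0.58 for shSCR (SE, *limma* adjusted p = 0.00757 over 284583 events) and −4.94 ± 0.33 for Empty (adjusted p = 0.00186 over 254137 events). Of all events tested, 1.06% fell by this test in shSCR and 0.0693% in Empty. By the criterion of the study for day 12 against day 0, |∆PSI| of 10 or more and a distance of 5 or more between the nearest libraries, 0.46% of covered events fell in shSCR and 0.323% in Empty. The study lists this exon for the knockdown libraries, so its calls there are not independent evidence. The falls in the 2 controls differed by 0.83 ± 0.82 on the log2 scale (adjusted p = 0.803 over 300391 events of all 18 libraries, of which 0.00266% passed). In shSCR, the adjusted p rose to 0.0583 without NI replicate 1 and to 0.0706 without NI replicate 2. In Empty, it was 0.238 to 0.634 with any 1 of the 6 libraries left out, with falls of −5.47 to −4.50.

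**Figure D1:**
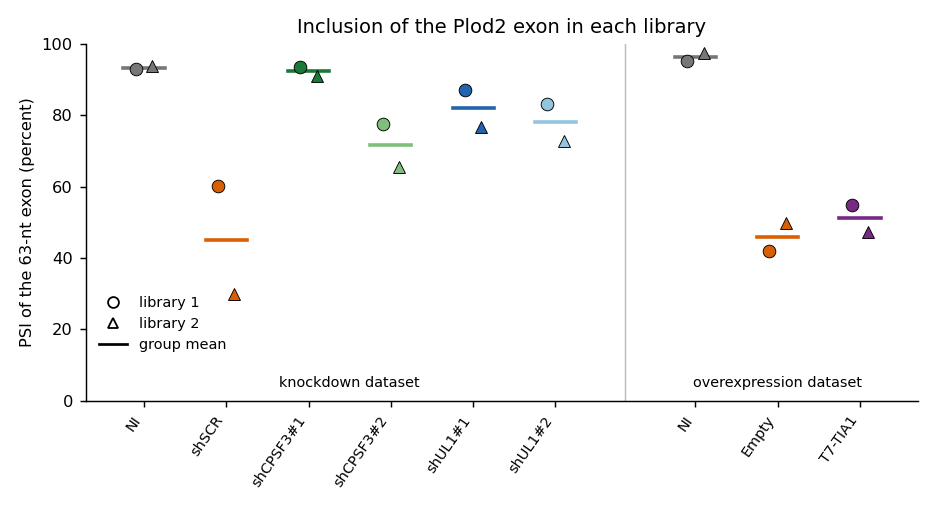
Percent spliced in of the 63-nucleotide *Plod2* exon (vertical axis, percent) in the 2 libraries of each group (circle, replicate 1; triangle, replicate 2), with the group mean as a line; all groups but NI are at day 12. The NI libraries sit between 93.0 and 97.5, the shSCR, Empty, and T7-TIA1 libraries between 30.03 and 60.2, and the knockdown libraries between 65.5 and 93.7.

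With *Cpsf3* or *Hnrnpul1* knocked down, every library kept a higher PSI than either shSCR library at day 12. PSI was 93.7 and 90.9 with shCPSF3#1, 77.7 and 65.5 with shCPSF3#2, 87.2 and 76.8 with shUL1#1, and 83.3 and 72.7 with shUL1#2. The shCPSF3#1 libraries overlapped those of NI, while the other 3 shRNAs gave values between NI and shSCR. The mean of both shRNAs exceeded shSCR by 36.8 PSI for *Cpsf3*, with 5.34 between the nearest libraries, and by 34.9 for *Hnrnpul1*, with 12.5 between them. Both passed the same limits of 10 on ∆PSI and 5 on this distance, as 0.167% and 0.158% of covered events did in the direction of higher inclusion. The study set another rule for the knockdowns, a difference of 10 for each shRNA of a factor, and the 4 single shRNAs exceeded shSCR by 26.5 to 47.2 PSI.

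In reads, inclusion rose by 2.78 ± 0.49 on the log2 scale upon *Cpsf3* knockdown (*limma* adjusted p = 0.0331, when 0.376% of events rose). The difference upon *Hnrnpul1* knockdown was 2.36 ± 0.49 and did not pass (adjusted p = 0.0812, when 0.136% of events rose), but it passed with the replicate number as a block (adjusted p = 0.0212). The *Cpsf3* call was lost with 11 of the 12 libraries left out in turn (adjusted p = 0.0503 to 0.138, and 0.0425 without shSCR replicate 1). Without shSCR replicate 2, the library with the lowest PSI, the effects were 1.88 for *Cpsf3* and 1.46 for *Hnrnpul1*. The 2 factors differed by 0.42 ± 0.41 (adjusted p = 0.842), and 0.0% of the 284583 events passed between them in *limma*, where 19800 had an unadjusted p under 0.05. These comparisons share the shSCR libraries with each other and with the comparison of shSCR and NI. The paper reports fewer cells with reprogramming markers and fewer colonies upon either knockdown. It also states that the trypsin harvest dissociated the feeder layer, so feeder RNA may be in day 12 libraries. The part of either in the PSI of this exon was not tested.

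T7-TIA1 cells did not differ detectably from Empty cells in this exon. PSI was 54.9 and 47.3 in T7-TIA1, overlapping the 42.1 and 49.9 of Empty, with a ∆PSI of 5.12 and a log2 difference of 0.30 ± 0.30 (*limma* adjusted p = 0.846, when 0.013% of events passed). Ordered by mean PSI, the groups were NI of overexpression (96.3 ± 1.68, SD, n = 2 libraries here and below), NI of knockdown (93.4 ± 0.495), shCPSF3#1 (92.3 ± 1.95), shUL1#1 (82.0 ± 7.36), shUL1#2 (78.0 ± 7.50), shCPSF3#2 (71.6 ± 8.60), T7-TIA1 (51.1 ± 5.39), Empty (46.0 ± 5.52), and shSCR (45.1 ± 21.3). Libraries of neighbouring groups in this order overlapped except between the 2 NI groups, between shCPSF3#1 and shUL1#1, and between shCPSF3#2 and T7-TIA1.

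The total level of *Plod2* passed in 0 of the 6 comparisons in the fits of the deposited values without a replicate block. Its values are CPM relative to a scaled library size (scaled CPM): 172 and 184 in NI, 213 and 239 in shSCR, 158 and 138 with shCPSF3#1, 190 and 145 with shCPSF3#2, 239 and 155 with shUL1#1, and 167 and 122 with shUL1#2. In the overexpression dataset they were 159 and 173 in NI, 200.3 and 151 in Empty, and 165 and 158 in T7-TIA1. The shSCR libraries lay above both NI libraries, whereas NI, Empty, and T7-TIA1 overlapped. On the scale log2(scaled CPM + 1), which understates changes of low genes, the difference from day 0 was 0.34 ± 0.24 in shSCR (SE, *limma* adjusted p = 0.279) and 0.07 ± 0.16 in Empty (adjusted p = 0.728). Against shSCR it was −0.53 ± 0.21 upon *Cpsf3* knockdown (adjusted p = 0.0930) and −0.44 ± 0.21 upon *Hnrnpul1* knockdown (adjusted p = 0.204), and against Empty it was −0.11 ± 0.16 in T7-TIA1 (adjusted p = 0.999). With the replicate block, *Plod2* fell upon *Cpsf3* knockdown (−0.53, adjusted p = 0.0324). It also passed with every library scaled to the same total (−0.62, adjusted p = 0.0375), which moved the median of all genes in this comparison from 0.03 to −0.06.

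Multiplying the *Plod2* level by PSI gave the level of each form, as a description with no test. The form without the exon was at 11.8 ± 0.325 scaled CPM in NI and 126 ± 58.2 in shSCR, a ratio of means of 10.7. In the overexpression dataset it was at 6.06 ± 2.42 in NI and 95.9 ± 28.4 in Empty, a ratio of 15.8. The long form went the other way, from 166 ± 8.71 to 100.01 ± 39.9 in shSCR and from 160 ± 12.4 to 79.9 ± 6.22 in Empty. With the shRNAs against *Cpsf3* and *Hnrnpul1*, the short form was at 10.002 to 49.8 in the single libraries, below both shSCR libraries (84.9 and 167).

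**Figure D2:**
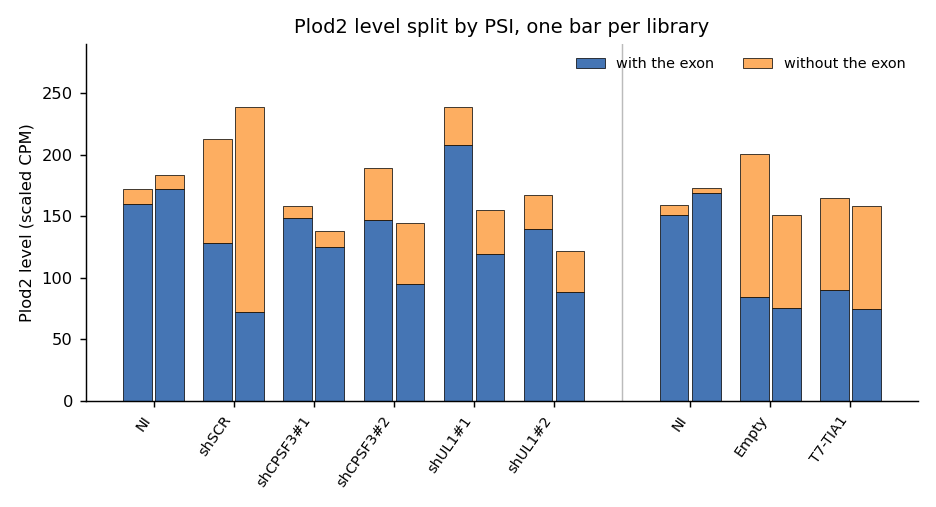
Level of *Plod2* in scaled CPM (vertical axis), 1 bar for each library in the order replicate 1, replicate 2, divided by PSI into the form with the 63-nucleotide exon (blue) and the form without it (orange). Bar heights lie between 122 and 239, while the orange part ranges from 4.34 in an NI library to 167 in shSCR replicate 2.

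The genes whose level was most like that of *Plod2* over the 18 libraries, each dataset centred on its NI mean, were *Sos1* (Pearson r = 0.757), *Akip1* (r = 0.729), and *Gkap1* (r = 0.710), of 9041 genes in both tables. Among the other 6 enzymes, r to the *Plod2* level ranged from −0.16 (*Loxl1*) to 0.28 (*Plod1*), and r to the PSI of the *Plod2* exon was 0.917 for *Plod3*, 0.905 for *Lox*, 0.880 for *Loxl1*, 0.783 for *Loxl2*, 0.607 for *Loxl3*, and 0.543 for *Plod1*, against −0.30 for the *Plod2* level itself. By this measure, *Plod3*, *Lox*, *Loxl1*, *Loxl2*, *Loxl3*, and *Plod1* were at ranks 125, 199, 356, 1009, 1969, and 2267 of the 9041 genes. These values are descriptions over 18 libraries that share groups, day, and replicate numbers.

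Cassette exons of other genes with the most similar PSI profile, among 2313 covered in all libraries with a PSI range of at least 20, were in *Sec31a* (78 nucleotides, chr5:100388534-100388611, r = 0.950), *Dnm2* (139 nucleotides, chr9:21478899-21479037, r = 0.950), and *Csnk1g3* (24 nucleotides, r = 0.949). *Sec31a* codes for a coat protein of the vesicles that leave the endoplasmic reticulum. Its exon had a mean PSI of 93.3 in NI, 73.4 in shSCR, and 91.3 with shCPSF3#1. The *Dnm2* exon, in the gene of the membrane-scission GTPase dynamin 2, was at 82.8, 52.4, and 83.4 in the same groups.

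**Figure D3:**
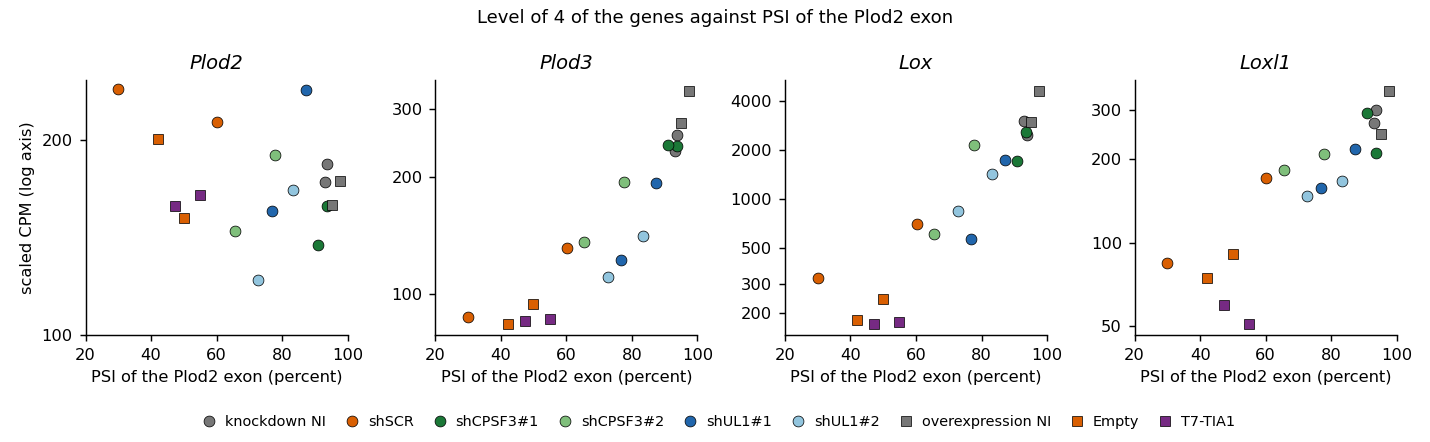
Level of *Plod2*, *Plod3*, *Lox*, and *Loxl1* in scaled CPM (vertical axis, logarithmic) against PSI of the *Plod2* exon (horizontal axis, percent), 1 point for each of the 18 libraries (circles, knockdown dataset; squares, overexpression dataset). Levels of *Plod3*, *Lox*, and *Loxl1* are high at PSI above 90 and low at PSI of 60.2 and below, whereas *Plod2* shows no such order; levels of the 2 datasets were scaled separately.

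Among the hydroxylases, *Plod3* fell from day 0 to day 12 in both controls and *Plod1* did not pass in either. *Plod3* was at 233 and 257 scaled CPM in NI and 132 and 87.3 in shSCR, and at 276 and 332 in NI and 84.0 and 94.6 in Empty. The groups did not overlap in either dataset, as for 77.0% of all genes in shSCR against NI and 74.3% in Empty against NI. Its log2 fold change was −1.18 ± 0.28 in shSCR (*limma* adjusted p = 0.0107) and −1.75 ± 0.13 in Empty (adjusted p = 0.00109). *Plod1* was at 75.8 and 88.5 in NI and 125 and 61.9 in shSCR, where the shSCR libraries enclosed those of NI. In the overexpression dataset it was at 88.8 and 157 in NI and 77.3 and 55.9 in Empty. The difference of −0.83 ± 0.30 in Empty did not pass (adjusted p = 0.0652), but without NI replicate 1 it was −1.24 (adjusted p = 0.00257).

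The oxidases fell most in *Lox*, the founding member of the family. It was at 3010 and 2490 scaled CPM in NI, 704 and 327 in shSCR, 2965 and 4605 in NI of the overexpression dataset, and 180 and 241 in Empty. Every day 12 control library was below every NI library of its dataset. The log2 fold change was −2.51 ± 0.72 in shSCR (*limma* adjusted p = 0.0223, 5.70-fold lower) and −4.14 ± 0.25 in Empty (adjusted p = 0.000850, 17.7-fold lower). Whether the 2 controls differ in this fall was not tested, as the tables were scaled separately.

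*Loxl1*, known for elastic fibre upkeep, was at 270 and 299 in NI and 171 and 84.4 in shSCR, and at 246 and 350 in NI and 74.6 and 91.1 in Empty. It fell by 1.23 ± 0.32 on the log2 scale in shSCR (*limma* adjusted p = 0.0156) and by 1.82 ± 0.21 in Empty (adjusted p = 0.00234). *Loxl2*, which acts on basement membrane and fibrillar collagens, was at 276 and 288 in NI, 209 and 117 in shSCR, 278 and 364 in NI of the overexpression dataset, and 105 and 78.2 in Empty. It fell by 1.80 ± 0.20 in Empty (adjusted p = 0.00235) and had −0.85 ± 0.69 in shSCR, which did not pass (adjusted p = 0.352).

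*Loxl3*, a family member needed for palate and spine development, had the smallest difference of these 4 oxidases in both controls. It was at 233 and 329 in NI and 235 and 206 in shSCR, which overlapped, and at 429 and 320 in NI and 246 and 246 in Empty. The log2 fold change was −0.33 ± 0.22 in shSCR (*limma* adjusted p = 0.254) and −0.59 ± 0.17 in Empty (adjusted p = 0.0333). The call in Empty was lost with equal library totals (−0.41, adjusted p = 0.0787), with NI and Empty alone in the fit (adjusted p = 0.0680), and without any 1 of the Empty or T7-TIA1 libraries (adjusted p = 0.0681 to 0.151). The remaining oxidase, *Loxl4*, was counted with the other collagen-modifying genes and had −0.18 ± 0.33 in shSCR (adjusted p = 0.692) and −0.62 ± 0.16 in Empty (adjusted p = 0.0243).

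In all, 3 of the 7 enzymes fell in shSCR and 5 of 7 in Empty, and 0 rose in either. Of all genes, 22.0% fell and 22.5% rose in shSCR, and 23.6% fell and 22.8% rose in Empty. The median log2 fold change of the 7 was −0.85 in shSCR and −1.75 in Empty, against 0.00 and 0.01 over all genes. The 3 calls in shSCR rested on the NI and shSCR libraries. Without shSCR replicate 2, the log2 fold changes of *Plod3*, *Lox*, and *Loxl1* were −0.89, −1.96, and −0.73, with adjusted p values of 0.0672, 0.123, and 0.0696. Without NI replicate 2, they were 0.0621, 0.0750, and 0.0802, and without NI replicate 1 those of *Lox* and *Loxl1* were 0.103 and 0.0584. In these bulk libraries, fewer cells of a type and less RNA per cell cannot be told apart.

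**Figure D4:**
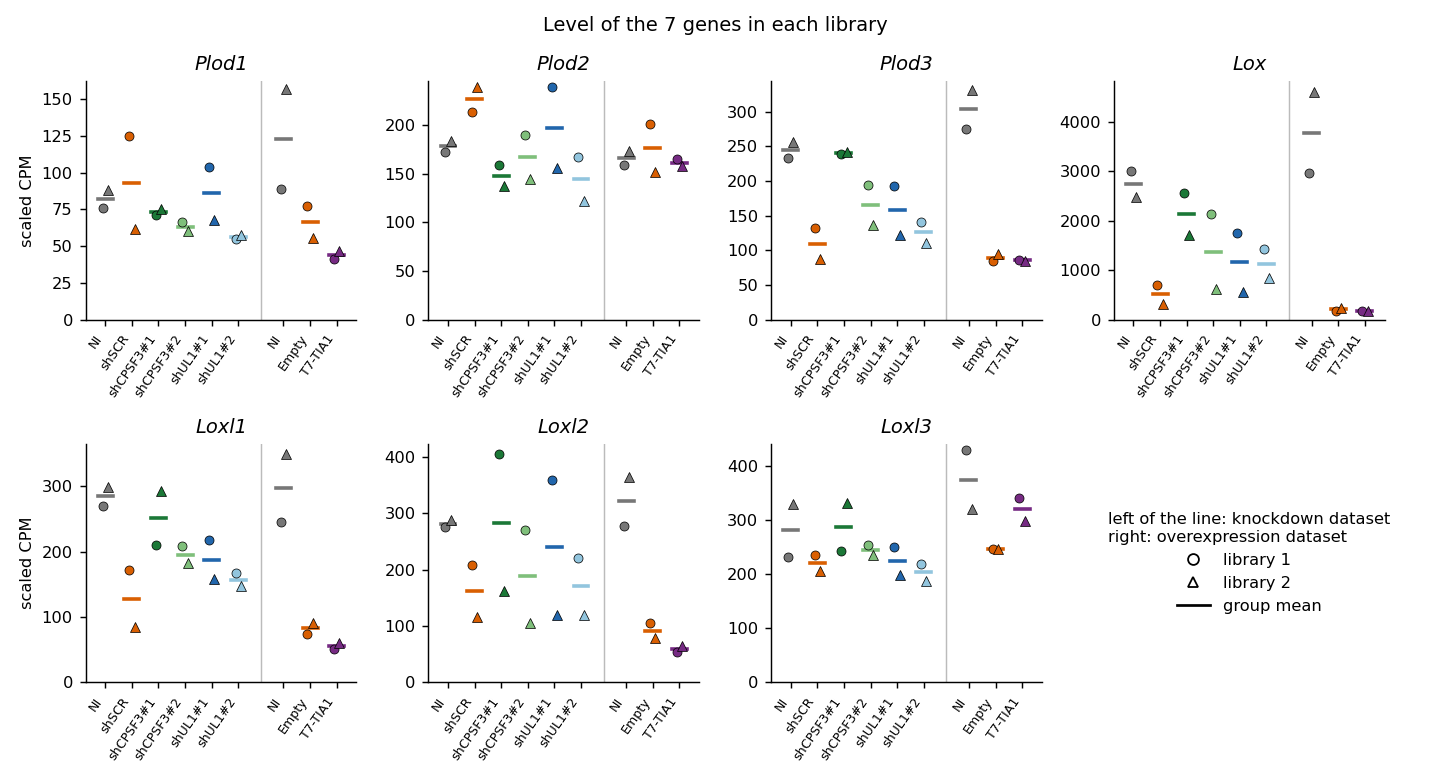
Level of each of the 7 enzymes in scaled CPM (vertical axes, each from 0) in both libraries of every group (circle, replicate 1; triangle, replicate 2), with the group mean as a line. *Plod3*, *Lox*, *Loxl1*, and *Loxl2* are lower in shSCR than in NI in every library, where 77.0% of all genes do not overlap in either direction. *Lox* drops from between 2490 and 4605 in NI to between 170 and 704 in the 2 controls and T7-TIA1, and *Plod2* stays between 122 and 239 throughout.

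Upon *Cpsf3* knockdown, *Plod3* passed and rose, and the other 6 did not pass in the fit of all groups without a replicate block. With the replicate number as a block, 4 passed: *Plod3*, *Lox* (adjusted p = 0.00392), and *Loxl1* (adjusted p = 0.0264) rose and *Plod2* fell (adjusted p = 0.0324, *limma*). The share of all genes that passed with the block is not given here, so this count cannot be set against it. *Plod3* was at 240 and 242 scaled CPM with shCPSF3#1 and 195 and 136 with shCPSF3#2, all above the 132 and 87.3 of shSCR, and the shCPSF3#1 libraries lay between those of NI. The log2 fold change against shSCR was 0.88 ± 0.25 (*limma* adjusted p = 0.0343). Of all genes, 16.7% rose and 9.35% fell in this comparison in the fit without the block. The call was lost without shSCR replicate 2 (0.58, adjusted p = 0.259), without either NI library (adjusted p = 0.0579 for both), without either shCPSF3#1 library (adjusted p = 0.0697 and 0.0701), without shCPSF3#2 replicate 1 (0.75, adjusted p = 0.0862), and with shSCR and shCPSF3 libraries alone in the fit (adjusted p = 0.0909).

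The 4 oxidases had positive differences that did not pass in the fit without the block. *Lox* was at 2570 and 1720 with shCPSF3#1 and 2139 and 612 with shCPSF3#2, and the last of these lay within the shSCR range of 327 to 704. Its log2 difference was 1.69 ± 0.62 (*limma* adjusted p = 0.0763). *Loxl1* was at 211 and 293 with shCPSF3#1 and 208 and 182 with shCPSF3#2, all above shSCR, with a difference of 0.87 ± 0.28 (adjusted p = 0.0535). *Loxl2* was at 406 and 162 with shCPSF3#1 and 271 and 106 with shCPSF3#2 (0.41 ± 0.60, adjusted p = 0.615), so that replicate 1 of each shRNA lay above both shSCR libraries and the others within or below their range. *Loxl3* was at 244 and 332 with shCPSF3#1 and 255 and 236 with shCPSF3#2, above both shSCR libraries (0.26 ± 0.19, adjusted p = 0.316). *Plod1*, at 71.5 and 75.5 with shCPSF3#1 and 66.2 and 60.1 with shCPSF3#2, lay within or just below the shSCR range of 61.9 to 125 (−0.36 ± 0.27, adjusted p = 0.328). With 1 library left out, *Lox* passed without shCPSF3#2 replicate 2 (2.14, adjusted p = 0.0273) and *Loxl1* without shSCR replicate 1 (1.37, adjusted p = 0.0180).

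Upon *Hnrnpul1* knockdown, 0 of the 7 passed with *limma* without the block, and 0 had an unadjusted p under 0.05, where 10.5% of all genes changed. *Lox* was at 1752 and 570 with shUL1#1 and 1428 and 842 with shUL1#2, of which only the 570 lay within the shSCR range (1.12 ± 0.62, adjusted p = 0.272, and 0.0316 with the replicate number as a block). *Loxl1* was at 218 and 158 with shUL1#1 and 167 and 147 with shUL1#2 (0.50 ± 0.28, adjusted p = 0.278). *Plod3* was at 193 and 123 with shUL1#1 and 141 and 111 with shUL1#2 (0.37 ± 0.25, adjusted p = 0.355). Both overlapped shSCR, as did the other 3 genes. *Plod1* was at 104 and 67.8 with shUL1#1 and 54.9 and 57.8 with shUL1#2 (−0.35 ± 0.27, adjusted p = 0.424). *Loxl2* was at 360 and 119 with shUL1#1 and 221 and 120 with shUL1#2 (0.23 ± 0.60, adjusted p = 0.824). In both shRNAs, replicate 1 of *Loxl2* exceeded the shSCR libraries and replicate 2 lay within their range. *Loxl3* was at 251 and 199 with shUL1#1 and 219 and 188 with shUL1#2 (−0.05 ± 0.19, adjusted p = 0.894). Between the *Cpsf3* and *Hnrnpul1* knockdowns, 0 of the 7 passed and 1 had an unadjusted p under 0.05, *Plod3* (0.51 ± 0.20, adjusted p = 0.353), where 0.0424% of all genes passed.

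T7-TIA1 and Empty cells gave 0 calls among the 7, as among all 9472 genes (0.0%), of which 393 had an unadjusted p under 0.05. *Loxl1* (51.1 and 59.8 in T7-TIA1, −0.57 ± 0.21) and *Loxl2* (54.2 and 63.9, −0.62 ± 0.20) were among those 393, and their libraries lay below those of Empty, with a *limma* adjusted p of 0.999 each. *Lox* was at 175 and 170, *Plod3* at 86.3 and 85.5, and *Plod1* at 41.5 and 46.6 in T7-TIA1. *Loxl3* was at 342 and 299, above both Empty libraries (0.38 ± 0.17, adjusted p = 0.999). For 5 of the 7 the libraries of the groups did not overlap, as for 51.9% of all genes.

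**Figure D5:**
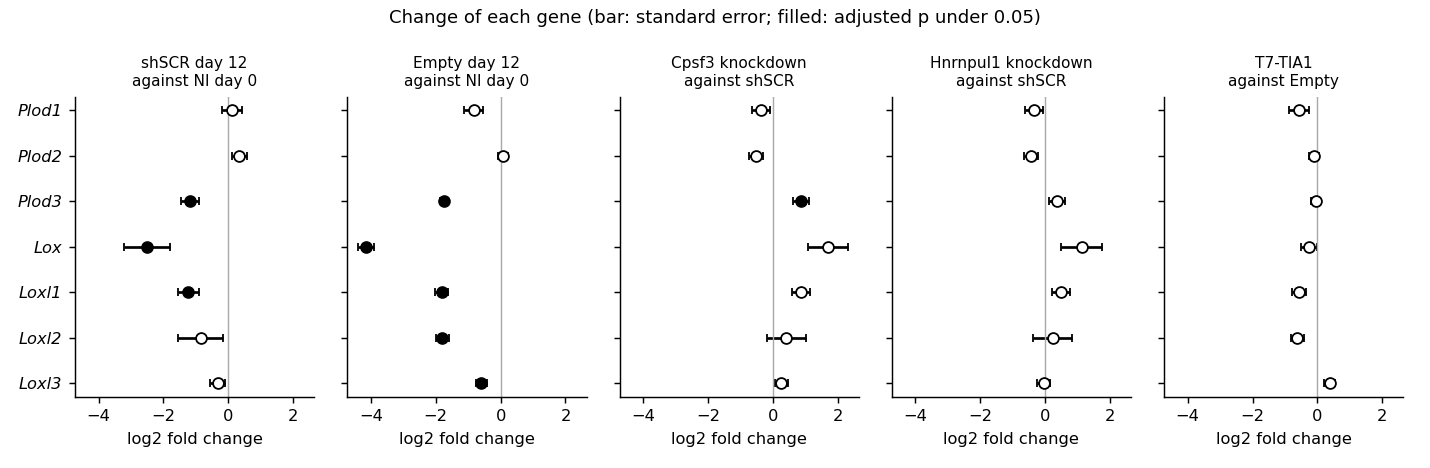
Log2 fold change of each enzyme (horizontal axis, on log2(scaled CPM + 1)) in 5 comparisons, with the standard error as a bar; filled points have an adjusted p under 0.05. Filled points lie on the negative side in both day 12 controls (3 in shSCR, 5 in Empty), 1 lies on the positive side upon *Cpsf3* knockdown (*Plod3*), and none is filled in the other 2 comparisons; all points are from fits without a replicate block.

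Within the 5 day 12 groups of the knockdown dataset, replicate 2 had the lower PSI of the *Plod2* exon in 5 of 5. It also had the lower *Lox* and *Loxl2* level in 5 of 5, the lower *Plod2*, *Plod3*, *Loxl1*, and *Loxl3* level in 4 of 5, and the lower *Plod1* level in 3 of 5. The labels give these numbers only as replicate numbers and do not say what they share.

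Other splicing events of the enzymes that passed the read test differed by a few PSI. In shSCR against NI, 14 of 283 tested events passed it (*limma*, with 3.16% of all events passing), in *Plod2*, *Plod3*, *Lox*, and *Loxl3*. Both sites of a 2-site choice are listed as separate events with mirrored values, so that 1 choice in *Plod3* and 1 in *Lox* each count as 2 of the 14. The 13, counted in the same way, besides the *Plod2* exon that passed in any comparison had a |∆PSI| of at most 4.60. The largest was an intron of *Plod3* (MmuINT0122402, chr5:136995059-136996105), whose retention was 2.71 and 3.11 PSI in NI and 7.59 and 7.43 in shSCR (adjusted p = 0.0157). With shCPSF3#1 it was 2.46 and 3.34 and with shCPSF3#2 4.07 and 4.95, a fall against shSCR that also passed (∆PSI −3.80, adjusted p = 0.0408). A 60-nucleotide exon of *Loxl3* (MmuEX1016348, chr6:83044747-83044806) went from 6.02 and 5.96 in NI to 2.83 and 2.91 in shSCR (adjusted p = 0.0285).

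In *Plod2* itself, 3 introns were slightly more retained in shSCR. The largest difference was in the intron before the exon upstream of the alternative one (MmuINT0122377, chr9:92598714-92600740), at 0.81 and 0.82 PSI in NI and 3.97 and 3.03 in shSCR (*limma* adjusted p = 0.0104). By the criterion on ∆PSI, which 1.2% of covered events met in shSCR, an alternative 3′ splice site of *Lox* also passed, at 72.3 and 71.7 in NI and 86.4 and 94.4 in shSCR. It rested on 22 and 18 reads in the shSCR libraries, and the read test did not pass (adjusted p = 0.219). In *Plod1*, *Loxl1*, and *Loxl2*, 0 events passed by either measure in any of the 6 comparisons. Upon *Cpsf3* knockdown 6 of 283 events, with the *Lox* choice as 2 of them, passed the read test (0.977% of all), upon *Hnrnpul1* knockdown 1 (0.31%), and in Empty 1 of 245 (0.126%, the *Plod2* exon). Between T7-TIA1 and Empty 0 of 245 passed in *limma*, and 23 had an unadjusted p under 0.05. Between the 2 knockdowns 0 of 283 passed, and 27 had an unadjusted p under 0.05. By the criterion on ∆PSI, 0 events of the enzymes passed in these comparisons, where 0.276% and 0.00527% of covered events did.

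Other genes that modify collagen or assemble its fibres fell in the day 12 controls and rose upon either knockdown where they passed. Of 23 listed genes, 20 were in each table (*P3h2*, *Colgalt2*, and *Adamts3* were not). In shSCR, 11 fell and 0 rose, led by *Serpinh1*, the collagen chaperone HSP47 (−2.20 ± 0.30, *limma* adjusted p = 0.000779), and *Fkbp10*, a prolyl isomerase that assists lysyl hydroxylation (−2.18 ± 0.17, adjusted p = 7.08e-05). In Empty, 15 fell and 0 rose, again led by *Serpinh1* (−2.43 ± 0.22, adjusted p = 0.00152) and *Fkbp10* (−2.06 ± 0.11, adjusted p = 0.000804). Upon *Cpsf3* knockdown 13 rose and 0 fell, led by the isomerase *Fkbp14* (1.80 ± 0.20, adjusted p = 0.00177) and *Efemp2*, a scaffold of elastic fibres that binds LOX (1.75 ± 0.28, adjusted p = 0.00563). Upon *Hnrnpul1* knockdown 7 rose and 0 fell, led by the prolyl hydroxylase subunit *P4ha3* (1.60 ± 0.27, adjusted p = 0.0138) and *Fkbp14* (1.46 ± 0.20, adjusted p = 0.00737). Over all genes, 22.0% fell in shSCR, 23.6% fell in Empty, 16.7% rose upon *Cpsf3* knockdown, and 10.5% changed upon *Hnrnpul1* knockdown. The list's median log2 fold changes were −0.64, −1.05, 0.98, and 0.78 in these comparisons, against 0.00, 0.01, 0.03, and 0.00 over all genes. T7-TIA1 against Empty gave 0 calls, with a median of −0.17.

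The collagen genes that the enzymes act on also fell in the controls and rose upon knockdown where they passed. Of 11 listed substrate genes, 10 were in each table (*Eln* was not). In shSCR, 7 fell, led by *Col2a1* (−3.28 ± 0.90, *limma* adjusted p = 0.0186) and *Col5a2* (−2.42 ± 0.26, adjusted p = 0.000287). In Empty, 9 fell, led by *Col1a1* (−3.18 ± 0.48, adjusted p = 0.00496) and *Col2a1* (−3.12 ± 0.37, adjusted p = 0.00252). The NI libraries of that dataset lay far apart, with sums over the substrate genes of 17853.3 and 42525.5 scaled CPM in replicates 1 and 2. Upon *Cpsf3* knockdown 7 rose, led by *Col3a1* (2.54 ± 0.41, adjusted p = 0.00563) and *Col5a3* (2.42 ± 0.24, adjusted p = 0.00154), and upon *Hnrnpul1* knockdown 6 rose, led by the same 2 genes (2.48 ± 0.41, adjusted p = 0.0128, and 1.90 ± 0.24, adjusted p = 0.00720). The list's median log2 fold changes were −1.56, −2.02, 1.60, and 1.30 in these comparisons, against 0.00, 0.01, 0.03, and 0.00 over all genes. Of all genes, 22.0% fell in shSCR, 23.6% fell in Empty, 16.7% rose upon *Cpsf3* knockdown, and 10.5% changed upon *Hnrnpul1* knockdown. In T7-TIA1 0 passed, with a median of −0.51, and 0 substrate genes passed in the opposite direction in these comparisons. These lists were chosen with earlier results of the data known.

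Some markers of fibroblasts and of other cells moved with these results. Of 8 fibroblast markers, 7 were in each table, 3 of them collagens that are also among the substrates. Their summed level was 14473 to 17635 scaled CPM in NI, 5850 to 6149 in shSCR, and 12446 to 27354 in the libraries with shRNAs against *Cpsf3* or *Hnrnpul1*. In the overexpression dataset it was 16100 to 35687 in NI, 6181 to 6874 in Empty, and 5191 to 5512 in T7-TIA1. The sums are carried by the collagens and *Vim*, and not all of the 7 genes moved. In shSCR against NI, 3 fell (*Col1a1*, *Col1a2*, and *Vim*) and 4 did not pass, among them *Thy1* (318 and 367 in NI, 387 and 293 in shSCR) and *Col3a1* (758 and 1309 in NI, 1021 and 1251 in shSCR). In Empty, 5 fell, and *Col3a1* and *Twist1* did not pass. Upon *Cpsf3* and upon *Hnrnpul1* knockdown, 4 rose (*Col1a1*, *Col1a2*, *Col3a1*, and *Twist1*), and *Thy1*, *Vim*, and *Pdgfrb* did not pass. Among all genes, 22.0% fell in shSCR, 23.6% fell in Empty, 16.7% rose upon *Cpsf3* knockdown, and 10.5% changed upon *Hnrnpul1* knockdown. Of 4 leukocyte markers, the macrophage genes *Lyz2*, *Csf1r*, and *Cd68* were in the knockdown table, and their sum was 9.57 to 10.6 in NI, 171 to 300.4 in shSCR, 429 to 1814 in shCPSF3, and 259 to 1000.2 in shUL1 libraries. All 3 rose in shSCR and again upon *Cpsf3* knockdown, where 22.5% and 16.7% of all genes rose. The epithelial keratins *Krt8* and *Krt18*, 2 of 6 epithelial markers, summed to 16.0 to 20.4 in NI, 298 to 539 in shSCR, and 31.7 to 221 in the libraries with shRNAs against *Cpsf3* or *Hnrnpul1*. *Tek*, the 1 of 4 endothelial markers in the knockdown table, rose from 1.15 and 1.51 in NI to 24.96 and 29.7 in shSCR, and was at 18.3 to 63.9 in shCPSF3 and 41.9 to 143 in shUL1 libraries. *Des*, the 1 of 3 muscle markers, fell from 54.1 and 54.8 in NI to 13.8 and 15.4 in shSCR, and was at 6.13 to 20.3 in shCPSF3 and 8.12 to 36.6 in shUL1 libraries. No keratinocyte or pluripotency marker was in either table. None of these non-fibroblast markers was in the overexpression table. Their part in the results on the enzymes and on the *Plod2* exon was not tested.

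The targeted genes followed their labels. *Cpsf3* was at 86.7 to 118 scaled CPM in shSCR and 38.6 to 77.1 with its shRNAs (*limma* adjusted p = 0.0207), and *Hnrnpul1* at 156 to 185 in shSCR and 38.7 to 85.8 with its own (adjusted p = 0.0101). *Tia1*, counted with the introduced cDNA, was at 77.0 to 85.6 in Empty and 469 to 613 in T7-TIA1 (adjusted p = 0.222). Within 0.01 of a step, 100% of the values of each library were whole multiples of 1 step, and the steps of a library summed to 98882289 to 109047542, which would be its reads on the listed genes if a step is 1 read.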

How the data were processed

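The authors aligned the reads to mm10 with *STAR* 2.7.1a and computed CPM with *edgeR* 3.16.5, per the labels, and filtered the genes by level and variation. As deposited, expression is a non-negative signal, namely CPM over an effective library size. The authors ran *vast-tools*, and the deposited PSI values are in percent, beside a quality text that holds a coverage score and read numbers. No reads were processed anew.

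Expression was tested on log2(scaled CPM + 1) with *limma* 3.58.1 (R 4.3.3, trend, two-sided), all groups of a table in one fit, with Benjamini-Hochberg adjustment over all genes. A factor is the mean of its 2 shRNAs. Events with a coverage score of VLOW or better (at least 10 reads) in every library were tested with robust *limma* on log2((inclusion + 1)/(exclusion + 1)), weighted by 1/(counting variance + 0.1). Adjusted p under 0.05 was the threshold. The unit differed from the plain CPM for which the tests were laid out, and the tests were kept. Fits were tested on simulated data. Alternatives covered the constants, filters, scaling, weights, groups fitted, replicate block, and each library left out. Sequences came from GENCODE M21.

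Deviations from the group means of same-numbered libraries correlated at r = 0.674 to 0.949 across genes and 0.103 to 0.254 across events in all 10 pairs of day 12 knockdown groups. The numbers were therefore taken to pair these libraries, as a property of the data that no label explains, and blocked values are given where they change a call. Between NI and those groups r was −0.127 to 0.0218 across genes and −0.0256 to 0.0204 across events, and in the overexpression dataset 0.171 to 0.308 and 0.0238 to 0.113.

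All 7 enzymes are named with every library. Of their events, those that passed either measure are described or counted, and of the other pathway genes, the 2 largest rises and falls that passed in each list. Members and lists were chosen with earlier results of these data known. Sequencing depth limits events near 10 reads most.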

Additional observations from a re-analysis of the deposited data

How the results depend on the processing

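With the replicate number as a block, 4 enzymes passed upon *Cpsf3* knockdown (*Plod3*, *Loxl1*, *Plod2*, *Lox*) in place of 1, 1 upon *Hnrnpul1* knockdown (*Lox*) in place of 0, and the *Plod2* exon passed upon *Hnrnpul1* knockdown (2.36, adjusted p = 0.0212). Shares of all genes or events that passed under the block or the other alternatives are not given here. Gains and losses of calls among the enzymes therefore cannot be set against those over all genes. The block changed no other call on the 7 enzymes or this exon. Results of the alternatives for the other events and the gene lists are not given here.

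The number of enzymes that passed upon *Cpsf3* knockdown was 2 with equal library totals and 0 with only the groups compared in the fit. Equal totals moved the median of all genes from 0.00 to 0.13 in shSCR, from 0.01 to 0.19 in Empty, and from 0.03 to −0.06 upon *Cpsf3* knockdown, where the gained call was that of *Plod2* (−0.53 to −0.62). Tested as PSI in percent without weights, the *Plod2* exon kept its direction and did not pass in shSCR (−48.3, adjusted p = 0.0847), in Empty (−50.3, adjusted p = 0.178), or upon *Cpsf3* knockdown (36.8, adjusted p = 0.163), and with no weights the last was 2.79 (adjusted p = 0.0928). The causes were not tested.

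When single libraries were left out, the number of enzymes that passed was 0 to 3 in shSCR, 0 to 2 upon *Cpsf3* knockdown, and 4 to 6 in Empty. The *Plod2* exon ranged from −5.03 to −3.21 in shSCR, from 1.88 to 3.69 upon *Cpsf3* knockdown, from −5.47 to −4.50 in Empty, and from −0.083 (without shSCR replicate 1) to 1.73 for the difference between the 2 controls. Differences that had not passed and changed sign in this way were those of *Plod1* in shSCR (−0.40 to 0.60), upon *Cpsf3* (−0.86 to 0.14) and *Hnrnpul1* knockdown (−0.85 to 0.15), and between the 2 factors (−0.17 to 0.14), of *Plod2* between the factors (−0.24 to 0.070), in Empty (−0.13 to 0.27), and in T7-TIA1 (−0.31 to 0.091), of *Plod3* in T7-TIA1 (−0.14 to 0.031), of *Loxl1* upon *Hnrnpul1* knockdown (−0.0081 to 1.01), of *Loxl2* upon *Cpsf3* (−0.0036 to 0.83) and *Hnrnpul1* knockdown (−0.18 to 0.65) and between the factors (−0.22 to 0.58), and of *Loxl3* upon *Hnrnpul1* knockdown (−0.14 to 0.049).

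The planned tests of counts with quasi-likelihood and negative binomial models were not run. The deposited values are whole multiples of 1 step per library, but they are scaled, and that a step is 1 read was not established. With 2 libraries per group, adjusted p values near the threshold move with the number of libraries in the fit.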
